A study of Mus musculus with 8 samples.

Results

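The genes described here encode proteins that build the secretory granules of endocrine cells or cut and trim prohormones inside them. They were chosen by name: 10 symbols were listed, and every probe set annotated with exactly 1 of them was taken. This gave 11 of the 45101 probe sets of the array, for 9 genes: Pcsk1, Cpe, Chga, Chgb, Scg2, Scg3, Scg5, Ptprn and Ptprn2. Cpe and Ptprn2 had 2 probe sets each, and Pcsk2 was not analysed here. All 9 genes passed the filter on dim probe sets.

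Islets of NOD.Scid mice, of the diabetes-prone NOD background with a Scid mutation that leaves them without functional lymphocytes, were measured on 8 Affymetrix arrays. The diabetogenic arm had 3 arrays, from days 3, 4 and 8 after injection of CD4+ BDC2.5 transgenic T cells. The protected arm had 4 arrays, from days 3, 4, 5 and 8 after the same cells plus 2 injections of an antibody against interferon-γ, on day -1 and day 2. The remaining array came from untreated NOD.Scid mice. RNA pooled from 5 mice was cut out of frozen sections by laser and amplified for each array, and no arm and day was measured more than once. No control antibody is named in the labels, so neutralising interferon-γ and injecting an antibody cannot be told apart. Precision is limited by there being so few arrays, and p-values measure the spread between arrays, not between mice.

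In the granule, prohormones such as proinsulin and proglucagon are packed together with granins, acidic proteins that aggregate with calcium in the Golgi. Convertases cut the prohormones at pairs of basic residues and a carboxypeptidase removes those residues, which leaves the mature hormones. Chga has a further role in this model, because its protein is the source of the antigen that BDC2.5 T cells recognise. The proteins of Ptprn and Ptprn2, which span the granule membrane, are targets of autoantibodies in autoimmune diabetes.

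Promoter sequences are shown because the genes changed together between days. The sequences are those of RefSeq on GRCm38.p6, which held 8 of the 9 genes (Cpe was not listed). The palindrome TGACGTCA, the cAMP response element, was searched in the 250 bases before each start site. It was present for 3 of these 8 genes, Pcsk1, Chgb and Scg2, against 1.77% of all 27025 genes in the table. The shorter core TGACG, read on both strands and contained in the palindrome, was present for 7 of the 8 (Ptprn2 being the exception), against 19.8% of all genes. The closest match in the Chga promoter was 1 base away, at C7A, counting from the first base of the palindrome and giving the palindrome's base first. A match is a description of these letters and not evidence that a factor binds there. The stretches below read 5′ to 3′ along the gene, with the element, or its closest match for Chga, in capitals.
Pcsk1, chr13:75089753-75089812, plus strand: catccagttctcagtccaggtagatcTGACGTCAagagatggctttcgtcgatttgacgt
Chga, chr12:102554871-102554930, plus strand: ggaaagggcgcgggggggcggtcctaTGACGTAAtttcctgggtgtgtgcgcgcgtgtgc
Chgb, chr2:132781544-132781603, plus strand: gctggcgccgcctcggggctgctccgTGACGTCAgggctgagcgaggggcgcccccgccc
Scg2, chr1:79440061-79440120, minus strand: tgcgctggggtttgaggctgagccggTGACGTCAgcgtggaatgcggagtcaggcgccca
The first capital lay 78 bases before the annotated start used for Pcsk1, 44 before that of Chga, 72 before that of Chgb and 68 before that of Scg2. The start used for Pcsk1 and the stretch shown lie inside the annotated gene, which begins at chr13:75089420.

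Before the results, 2 features of the arrays bear on all of them. Spiked hybridisation controls, foreign transcripts added to the sample, had a median intensity of 1.48 to 2.29 in untreated islets and in both arms on day 3. In the 5 samples of days 4, 5 and 8 the median was 551 to 1712, so day and spiked controls cannot be told apart. The share of probe sets reaching 8 times their array's median was 0.850% for diabetogenic day 4, the lowest, and between 2.00% and 5.34% for the other 7 arrays. Of the islet hormone genes, Ins2 ranged from 3409 to 6359, Gcg from 52.8 to 2390 and Ppy, which is expressed by the pancreatic polypeptide cells, from 1.54 to 7.85. Intensities are linear and were compared as log2(intensity + 2.155), so differences and folds understate the change of dim probe sets. Array medians were 3.14 to 3.96. The files used here hold no detection call or background measure, so the array median was taken, after the values were seen, as the level below which no order or fold is read. Below it lay 4 of the 9 genes on diabetogenic day 4 (Pcsk1, Scg2, Scg5 and Ptprn2), 4 on diabetogenic day 8 (Pcsk1, Cpe, Ptprn and Ptprn2) and 2 on protected day 4 (Ptprn and Ptprn2).

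Granule and processing transcripts were lower on the later days than on day 3, in both arms. For all 9 genes days 4, 5 and 8 of both arms all lay below untreated islets and below day 3 of both arms, with no overlap. The same held for 17% of all 16396 genes tested. From day 3 to day 4, with the arms averaged, 9 of 9 genes fell (limma, Benjamini-Hochberg adjusted p under 0.05), against 17.3% of all genes called lower and 4.64% called higher. Their median difference was −4.14 on the log2 scale, against −0.14 over all genes, and −2.52 against −0.01 with cyclic loess. From day 3 to day 8, 7 of 9 fell and none rose, against 10.5% of all genes called lower and 3.78% called higher, with a median of −3.52 against −0.03, or −2.77 with probe sets averaged per gene and −2.86 with 4 times the pseudocount. These contrasts set 2 arrays of a day against 2 of day 3. Their errors and p-values rest mostly on the trend over all genes (27.1 degrees of freedom, against 2 residual ones per gene). In a bulk sample, fewer endocrine cells and less RNA per cell cannot be told apart. Nor can day be told apart from the spiked controls, which gave signal only on the arrays of days 4, 5 and 8.

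**Figure D1:**
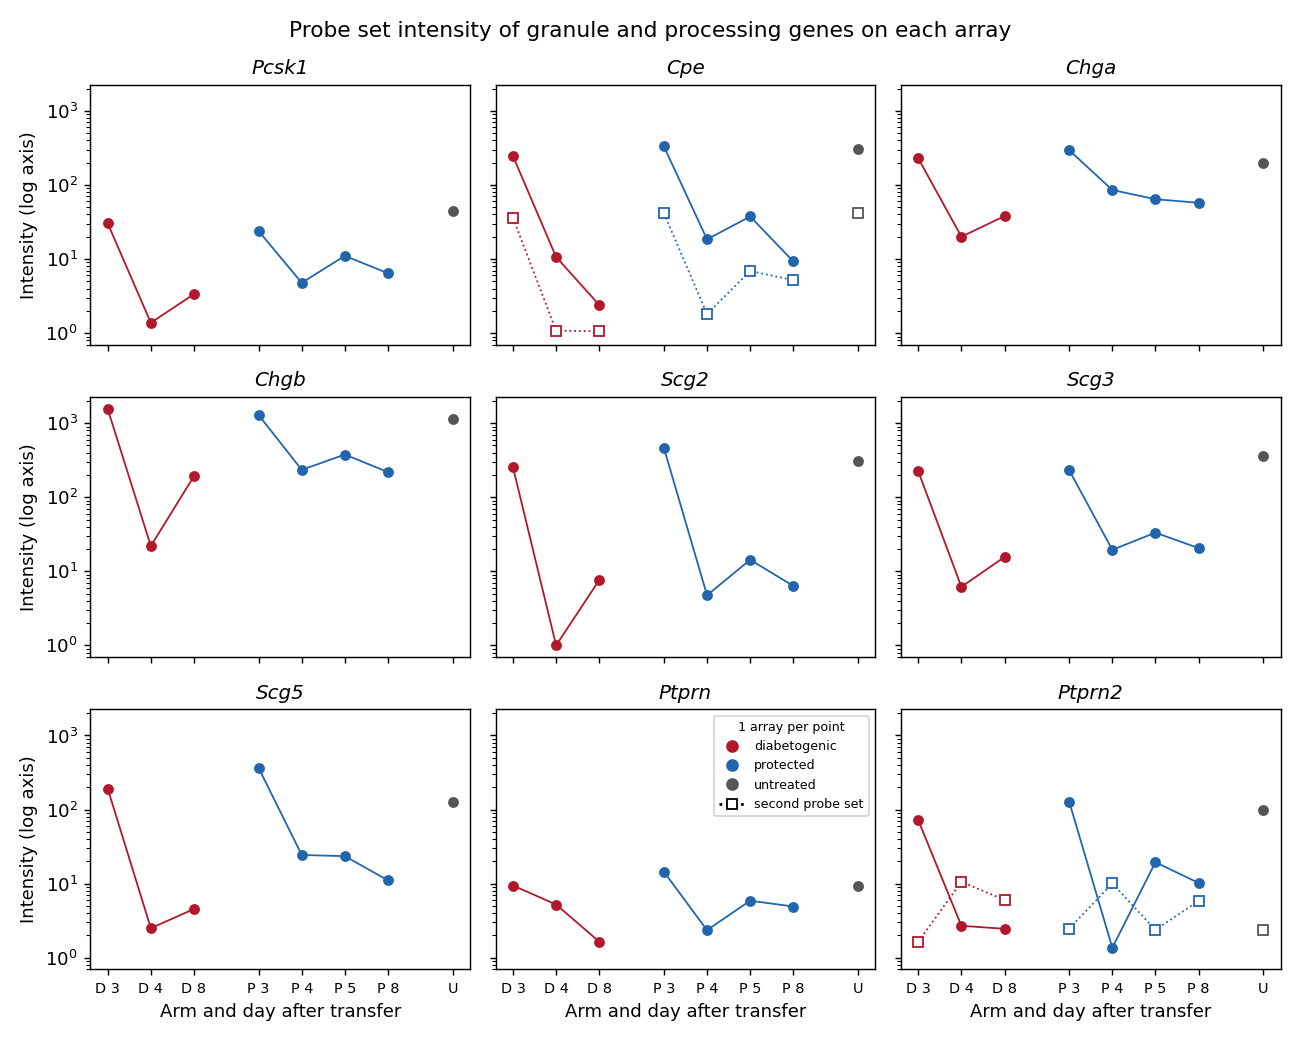
Probe set intensity (log axis) of the 9 genes on each of the 8 arrays, by arm (D, diabetogenic; P, protected; U, untreated) and day. Filled circles are the probe sets tested and open squares the second probe sets of Cpe and Ptprn2. In every panel the filled points of days 4, 5 and 8 lie below those of day 3 and of untreated islets.

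The processing enzymes come first. Pcsk1 encodes the convertase that makes the first cuts in proinsulin. Pcsk1 measured 30.4 on day 3, 1.38 on day 4 and 3.36 on day 8 in diabetogenic islets, 23.9 on day 3, 4.78 on day 4, 11.1 on day 5 and 6.42 on day 8 in protected islets, and 44.9 in untreated islets. The convertase transcript was thus highest in untreated islets and lower on day 3, and on days 4 and 8 of the diabetogenic arm it lay below the array median. On the log2 scale, Pcsk1 fell by 2.55 ± 0.46 between day 3 and day 4 (limma, adjusted p = 0.000233) and fell by 2.08 ± 0.46 between day 3 and day 8 (adjusted p = 0.00270), with the SE after each difference.

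Cpe encodes carboxypeptidase E, which trims the basic residues that convertases leave behind. Cpe measured 245 on day 3, 10.7 on day 4 and 2.40 on day 8 in diabetogenic islets, 332 on day 3, 18.4 on day 4, 37.6 on day 5 and 9.30 on day 8 in protected islets, and 304 in untreated islets. In both arms its lowest value was that of day 8. Its difference between day 8 and day 3, −5.31 ± 0.60, passed (limma, adjusted p = 3.29e-06), but its size was −4.19 with probe sets averaged per gene and −4.39 with 4 times the pseudocount. Between day 4 and day 3 the difference of Cpe was −4.14 ± 0.60 (adjusted p = 3.38e-05). The second probe set of Cpe measured 35.9 on day 3, 1.08 on day 4 and 1.06 on day 8 in diabetogenic islets, 41.4 on day 3, 1.81 on day 4, 6.89 on day 5 and 5.19 on day 8 in protected islets, and 42.02 in untreated islets, and so ran the same way. It gave −3.51 ± 0.44 for day 4 and −3.07 ± 0.44 for day 8 when every probe set was fitted as its own feature.

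Scg5 encodes a small granule protein that chaperones and inhibits the convertase of Pcsk2. Scg5 measured 191 on day 3, 2.50 on day 4 and 4.53 on day 8 in diabetogenic islets, 364 on day 3, 24.3 on day 4, 23.4 on day 5 and 11.04 on day 8 in protected islets, and 127 in untreated islets. Scg5 was higher on day 3 of both arms than in untreated islets, and on day 3 of the protected arm by 1.504 on the log2 scale. It was the only one of the 9 genes to differ from untreated islets by 2-fold or more on day 3. Scg5 fell by 4.58 ± 0.60 between day 3 and day 4 (limma, adjusted p = 1.58e-05) and fell by 4.82 ± 0.60 between day 3 and day 8 (adjusted p = 1.24e-05).

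Among the granins, Chga encodes chromogranin A. Chga measured 229 on day 3, 20.04 on day 4 and 38.02 on day 8 in diabetogenic islets, 295 on day 3, 85.7 on day 4, 64.3 on day 5 and 57.5 on day 8 in protected islets, and 200 in untreated islets. The transcript of the T cell antigen was therefore no lower on day 3 than in untreated islets, and on each matched day it was lower in the diabetogenic arm. Chga fell by 2.57 ± 0.84 between day 3 and day 4 (limma, adjusted p = 0.0272), a call lost with days 3 and 4 alone (adjusted p = 0.282) or with probe sets averaged per gene (adjusted p = 0.0740). Its difference between day 8 and day 3, −2.42 ± 0.84, did not pass (adjusted p = 0.0516), but passed with quantile normalization (adjusted p = 0.0185) and 5 other alternatives.

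Chgb encodes chromogranin B, the other classical chromogranin of endocrine granules. Chgb measured 1555 on day 3, 21.9 on day 4 and 193 on day 8 in diabetogenic islets, 1287 on day 3, 235 on day 4, 378 on day 5 and 219 on day 8 in protected islets, and 1144 in untreated islets. Day 4 of the diabetogenic arm was the lowest, far below the other samples of days 4, 5 and 8. Chgb fell by 4.23 ± 1.45 between day 3 and day 4 (limma, adjusted p = 0.0351), a call also lost with days 3 and 4 alone (adjusted p = 0.471), with probe sets averaged per gene (adjusted p = 0.111) or with dim probe sets kept (adjusted p = 0.0522). Its difference between day 8 and day 3, −2.77 ± 1.45, did not pass (adjusted p = 0.212), although it passed with quantile normalization (−3.28, adjusted p = 0.000988). It also passed with cyclic loess, without the variance trend and with days 3 and 8 alone.

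Scg2 encodes secretogranin II, a granin that is cut into the peptide secretoneurin. Scg2 measured 254 on day 3, 1 on day 4 and 7.62 on day 8 in diabetogenic islets, 462 on day 3, 4.75 on day 4, 14.3 on day 5 and 6.35 on day 8 in protected islets, and 312 in untreated islets. On day 4 of the diabetogenic arm it was at the bottom of the scale. Between day 4 and day 3 its difference of −6.21 ± 0.56 passed (limma, adjusted p = 1.03e-07), and its size was −6.91 with the pseudocount at 0.539, −4.96 with 4 times the pseudocount and −4.61 with cyclic loess. Between day 8 and day 3 the difference of Scg2 was −5.24 ± 0.56 (adjusted p = 2.80e-06).

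Scg3 encodes secretogranin III, which binds chromogranin A and the cholesterol-rich granule membrane. Scg3 measured 224 on day 3, 6.17 on day 4 and 15.6 on day 8 in diabetogenic islets, 232 on day 3, 19.5 on day 4, 33.3 on day 5 and 20.6 on day 8 in protected islets, and 358 in untreated islets. Day 3 was nearly the same in both arms and below untreated islets. Scg3 fell by 4.10 ± 0.65 between day 3 and day 4 (limma, adjusted p = 6.70e-05) and fell by 3.52 ± 0.65 between day 3 and day 8 (adjusted p = 0.000491).

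Of the transmembrane autoantigens, Ptprn encodes a protein that is built like a receptor tyrosine phosphatase but lacks that activity. Ptprn measured 9.41 on day 3, 5.21 on day 4 and 1.64 on day 8 in diabetogenic islets, 14.4 on day 3, 2.35 on day 4, 5.87 on day 5 and 4.90 on day 8 in protected islets, and 9.22 in untreated islets. Its later values lay below the earlier ones by a small margin, and its differences were the smallest of the 9 genes. Ptprn fell by 1.26 ± 0.45 between day 3 and day 4 (limma, adjusted p = 0.0427) and fell by 1.42 ± 0.45 between day 3 and day 8 (adjusted p = 0.0321). Both calls were lost with quantile normalization (adjusted p = 0.135 for day 4 and 0.118 for day 8), with cyclic loess (0.112 and 0.0665), with probe sets averaged per gene (0.0737 and 0.0708) and without the variance trend (0.0644 and 0.0547).

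Ptprn2 encodes the other of these phosphatase-like proteins, phogrin. The probe set tested for Ptprn2 measured 71.7 on day 3, 2.69 on day 4 and 2.45 on day 8 in diabetogenic islets, 128 on day 3, 1.36 on day 4, 19.4 on day 5 and 10.2 on day 8 in protected islets, and 98.3 in untreated islets. On day 4 of both arms and day 8 of the diabetogenic arm this probe set lay below the array median. Ptprn2 fell by 4.57 ± 0.51 between day 3 and day 4 (limma, adjusted p = 2.87e-06) and fell by 3.70 ± 0.51 between day 3 and day 8 (adjusted p = 3.82e-05). The other probe set of Ptprn2 measured 1.64 on day 3, 10.6 on day 4 and 6 on day 8 in diabetogenic islets, 2.47 on day 3, 10.03 on day 4, 2.37 on day 5 and 5.84 on day 8 in protected islets, and 2.33 in untreated islets. This other probe set went the opposite way, higher on day 4 than on day 3 by 1.57 ± 0.42 (limma over all probe sets, adjusted p = 0.0101), and it reached the array median on 4 of 8 arrays. With the mean of both probe sets Ptprn2 did not pass for day 8 (−1.38, adjusted p = 0.0587).

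**Figure D2:**
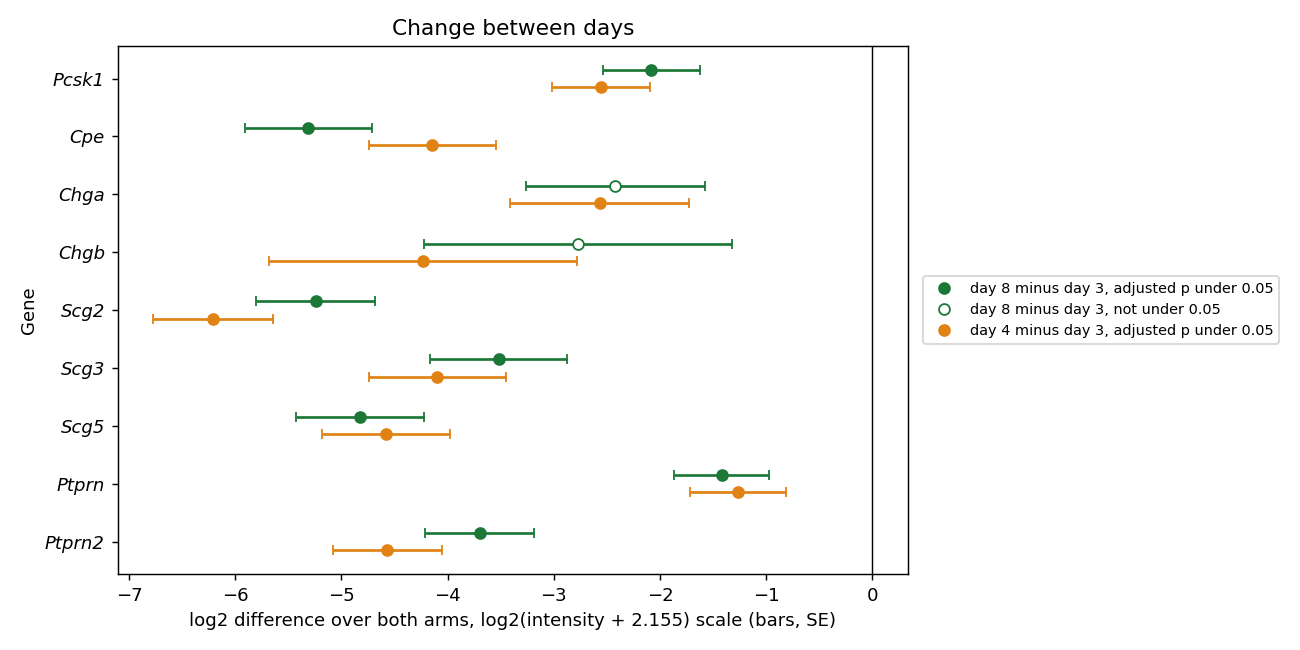
Log2 difference of day 8 and of day 4 from day 3 for each gene, averaged over both arms (2 arrays a day), with bars of 1 SE from limma. Filled points passed an adjusted p of 0.05. All 18 points lie below 0, from −6.21 for Scg2 on day 4 to −1.26 for Ptprn on day 4, and the open points are Chga and Chgb on day 8.

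After day 4 the arms were not alike in detail, but each is 1 array a day and was not tested. In the protected arm 7 of 9 genes were higher on day 5 than on day 4, Chga and Scg5 being lower, and 59.2% of all genes were higher on day 5. On day 8 all 9 were lower than on day 5, against 43.8% of all genes higher. In the diabetogenic arm 6 of 9 were higher on day 8 than on day 4, near the 56.6% of all genes that were. The share of bright probe sets was 2.00% on that day 8 and 0.850% on that day 4. Chgb was higher by 3.01 on the log2 scale, and the 3 genes that were not higher were Cpe, Ptprn and Ptprn2. Both values of Pcsk1, counted as higher, and both of Ptprn2 lay below the array median, so no order is read for either gene.

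The comparison of the arms asked whether granule transcripts differed when interferon-γ was neutralised. The mean difference over the matched days 3, 4 and 8 was negative for 9 of 9 genes, from −1.47 for Scg5 to −0.23 for Ptprn, with a median of −0.60 against −0.07 over all genes, of which 9314 of 16396 were negative. With cyclic loess the median was −0.09 against 0.01, and Chgb, Scg2 and Scg3 turned positive. No gene passed (limma with day as a block, 0 of 9), against 0.0915% of all genes called lower and 0.0122% called higher. At an unadjusted p under 0.05 only Scg5 was counted, where 8.91% of all genes were. For Scg5 the difference was −1.47 ± 0.49 over 3 day pairs (unadjusted p = 0.00582, adjusted p = 0.411), with the diabetogenic array lower on 3 of 3 days. The differences of Chga (−0.97 ± 0.69, adjusted p = 0.683), Cpe (−0.82 ± 0.49, adjusted p = 0.624) and Chgb (−1.07 ± 1.18, adjusted p = 0.806) were within 2 SE of 0. With 2 residual degrees of freedom per gene against 27.1 from the trend over all genes, these errors rest mostly on genes of like level.

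Day by day, the arms were closest on day 3, when 0 of 9 genes differed by 2-fold or more (0.506% of all genes were that much lower in diabetogenic islets and 1.4% higher). On day 4, 5 of 9 were at least 2-fold lower in diabetogenic islets, against 14.2% of all genes, and 0 of 9 were that much higher, against 6%. The 5 were Chgb (9.82-fold), Chga (3.96-fold), Scg3 (2.60-fold), and Scg5 and Scg2, whose diabetogenic values lay below the array median. On day 8, 2 of 9 were at least 2-fold lower, against 14.1% of all genes, and 0 of 9 were that much higher, against 9.39%. These 2, Ptprn2 and Cpe, also had diabetogenic values below the array median, and the count was 4 with the pseudocount at 0.539 and 0 with 4 times the pseudocount or with cyclic loess. Lower on all 3 days were 4 of 9, Cpe, Chga, Scg3 and Scg5, against 20.1% of all genes.

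Other signals moved with the arm differences on day 4, but only some of them did on day 8. On day 4 the share of bright probe sets was 0.850% in the diabetogenic and 2.23% in the protected sample. Actb, by its 3′ over its 5′ control probe set, gave 2.25 in the diabetogenic and 9.24 in the protected sample, and Gapdh gave 2.78 and 10.5. The summed intensity of 14 acinar markers was 324 in the diabetogenic and 7205 in the protected sample, and that of 17 leukocyte markers 303 and 2686. Csf1r, Laptm5 and Tyrobp made up most of the protected leukocyte sum, and 9 of the 17 markers were at least 2-fold lower in diabetogenic islets. On day 8 the acinar sum was 379 in the diabetogenic and 2187 in the protected sample, with 11 of the 14 markers at least 2-fold lower in diabetogenic islets. The share of bright probe sets on day 8 was 2.00% and 3.09%. The Actb ratio (13.8 and 10.5), the Gapdh ratio (19.0 and 10.8) and the leukocyte sum (2987 and 2678) were higher in the diabetogenic sample of day 8. With cyclic loess, 1 of 9 genes was at least 2-fold lower on day 4. The part of these signals in the result was not tested.

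**Figure D3:**
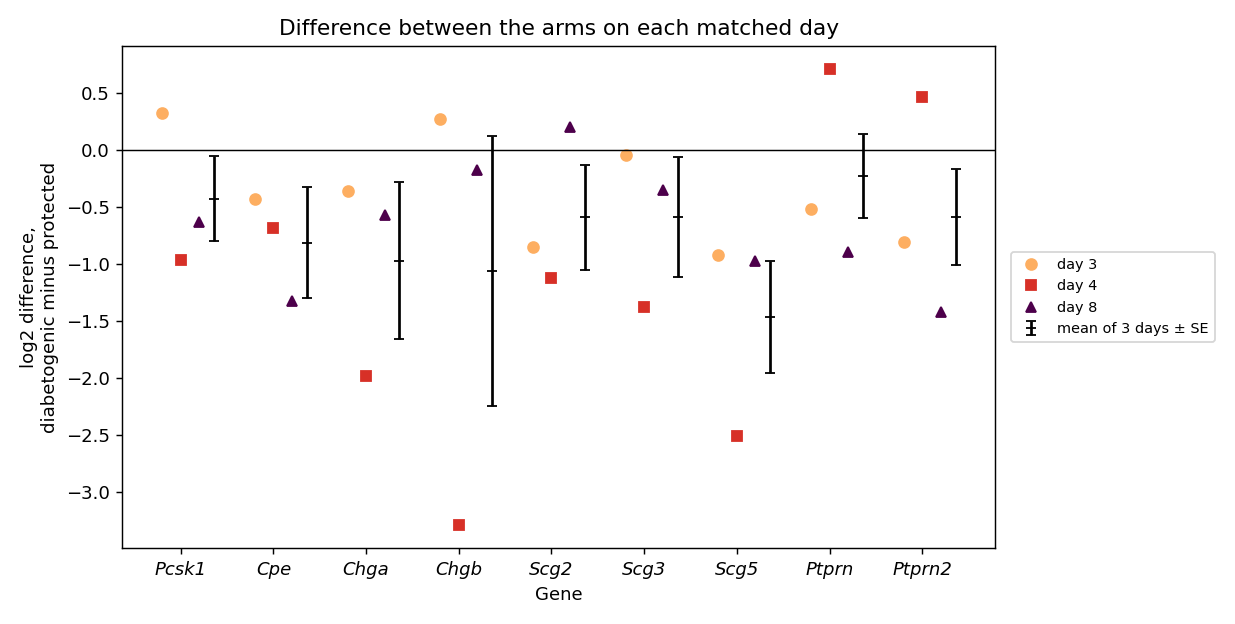
Log2 difference between the arms, diabetogenic minus protected, for each gene on days 3, 4 and 8 (1 array of each arm per day) and the mean of the 3 days with its SE from limma. The lowest day 4 point is that of Chgb at −3.30, and the means lie between −1.47 and −0.23. Intensities below the array median enter the day 4 points of Pcsk1, Scg2, Scg5, Ptprn and Ptprn2. They also enter the day 8 points of Pcsk1, Cpe, Ptprn and Ptprn2.

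Against untreated islets, 0 of 9 genes passed in the diabetogenic arm and 0 of 9 in the protected arm, as for all genes (limma over all 8 arrays, 0% called in either direction). At an unadjusted p under 0.05 the count was 1 of 9 (Pcsk1) in the diabetogenic arm, against 2.70% of all genes, and 0 of 9 in the protected arm, against 2.23%. Differences ran from −3.98 ± 2.18 (Scg2) to −0.73 ± 0.76 (Ptprn) in the diabetogenic arm, with a median of −2.83 against −0.10 over all genes. This median was −4.41 without the diabetogenic day 3 array, −1.84 without the diabetogenic day 4 array and −1.86 with cyclic loess. In the protected arm they ran from −3.60 ± 2.11 (Scg2) to −0.50 ± 0.74 (Ptprn), with a median of −1.98 against −0.05. It was −2.63 without the protected day 3 array and −1.50 with 4 times the pseudocount. The spread behind these errors is that between days of an arm, and it includes the change after day 3. The 2 comparisons share the untreated array.

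Among arrays without signal from spiked controls, day 3 can be set beside untreated islets, with 1 array each and no test. Here 0 of 9 genes were 2-fold or more lower in either arm, against 1.27% of all genes in the diabetogenic and 1.11% in the protected arm. That much higher were 0 of 9 in the diabetogenic arm (2.9% of all genes) and 1 of 9, Scg5, in the protected arm (2.22% of all genes). The median difference was −0.29 in the diabetogenic arm and 0.37 in the protected arm. Pcsk1 (−0.53 and −0.86) and Scg3 (−0.67 and −0.62) were lower in both arms, with the diabetogenic difference given first, whereas Chga, Chgb, Scg5 and Ptprn were higher in both. Leukocyte markers summed to 415 on the diabetogenic and 479 on the protected array of day 3, against 92.3 on the untreated array.

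Other genes of granule biology were taken from a list of 44. Of 40 that were tested, 21 fell and 0 rose between day 3 and day 4, against 17.3% of all genes called lower (median −1.30 on the log2 scale, against −0.14). Between day 3 and day 8, 17 fell and 0 rose, against 10.5% (median −1.27, against −0.03). The other 19 on day 4 and 23 on day 8 did not pass, and of these 4 and 6 had positive differences, such as Rab3a, a GTPase gene of regulated exocytosis (0.51 ± 0.59 and 0.51 ± 0.59). A second probe set of Rab3a ran the other way. It measured 9.90 on day 3, 5.63 on day 4 and 2.22 on day 8 in diabetogenic islets. In protected islets it measured 9.42 on day 3, 6.75 on day 4 and 6.02 on day 8. For 24 of the 40 the arrays of days 4, 5 and 8 all lay below the untreated and day 3 arrays, as for 17% of all genes. The most negative day 4 difference in the list was that of Sytl4, which encodes granuphilin, a protein that docks insulin granules at the plasma membrane. Sytl4 measured 87.99 on day 3, 3.11 on day 4 and 3.52 on day 8 in diabetogenic islets, 104 on day 3, 3.54 on day 4, 15.6 on day 5 and 9.55 on day 8 in protected islets, and 104 in untreated islets. A second probe set of Sytl4 ranged from 1 to 8.43. Sytl4 fell by 4.16 ± 0.50 between day 3 and day 4 (limma, adjusted p = 7.40e-06). On diabetogenic day 4 it lay below the array median, so no rank or fold is read.

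The 21 that fell between day 3 and day 4 included genes of the endoplasmic reticulum, such as Sec11c and Spcs1, signal peptidase subunits (−3.86 ± 0.50 and −3.85 ± 0.59), and Ero1b, an oxidase of proinsulin folding (−3.83 ± 0.82). They also included Slc30a8, the zinc transporter of insulin granules (−3.34 ± 0.49), and the autoantigen gene Ica1 (−2.37 ± 0.44). Further examples were the synaptotagmin genes Syt13 (−3.06 ± 0.61), Syt4 (−2.58 ± 0.42) and Syt7 (−2.39 ± 0.51) and the membrane-fusion gene Snap25 (−2.04 ± 0.43). The convertase inhibitor gene Pcsk1n was not among them, and it ranged from 1.54 to 6.34. On diabetogenic day 4 Sec11c, Spcs1, Slc30a8, Ica1, Syt4, Syt7 and Snap25 lay below the array median, so no order or fold is read for these. Between the arms 0 of 40 passed, the largest difference being that of Ero1b (−1.87 ± 0.67, adjusted p = 0.438).

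Peptide cargo of the granules was mixed. Of 11 genes tested, 3 fell and 1 rose on both day 4 and day 8 against day 3. The 3 were Sst, which encodes somatostatin (−3.69 ± 0.54 on day 4), Ucn3, a peptide gene of mature beta cells (−4.08 ± 0.46), and Npy (−2.64 ± 0.46). The 1 that rose was Ghrl, the ghrelin gene (1.46 ± 0.46). Sst, Ucn3 and Npy lay below the array median on diabetogenic day 4, and Ghrl on day 3 of both arms, so no order or fold is read. Ghrl measured 1 on day 3, 8.03 on day 4 and 14.5 on day 8 in diabetogenic islets, 2.51 on day 3, 8.82 on day 4, 5.19 on day 5 and 4.60 on day 8 in protected islets, and 1 in untreated islets. Ins2 measured 4471 on day 3, 3700 on day 4 and 3409 on day 8 in diabetogenic islets, 4887 on day 3, 5532 on day 4, 6359 on day 5 and 3779 on day 8 in protected islets, and 4277 in untreated islets. For Ins2 the later days overlapped day 3 and untreated islets. Its day 4 difference was −0.05 ± 5.80, an error drawn from the trend at the top of the scale, so no change of Ins2 was measurable in this fit.

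Most genes that mark beta cells moved with the granule genes: 7 of 11 fell on day 4 and 7 of 11 on day 8 (medians −2.86 and −2.85), among them Pdx1 and Slc2a2. The other 4 on each day did not pass, and 2 of them had positive differences on day 8. The tested probe set of Pdx1 lay below the array median on day 4 of both arms, and a second one ran the other way. That second probe set measured 4.18 on day 3, 7.53 on day 4 and 18.01 on day 8 in diabetogenic islets. In protected islets it measured 2.78 on day 3, 5.36 on day 4 and 5.29 on day 8. Over all genes 17.3% were called lower on day 4 and 10.5% on day 8, and 4.64% and 3.78% were called higher. Of 14 acinar markers 3 fell on day 4 and 4 on day 8, and of 17 leukocyte markers 3 fell on day 4 and 3 rose on day 8. The acinar and leukocyte counts of day 4 were near the share of all genes. Of 7 stromal markers 0 passed on day 4 and 3 rose on day 8, the collagen genes Col1a1, Col1a2 and Col3a1. The sum of leukocyte markers was 2987 on the diabetogenic and 2678 on the protected array of day 8, against 415 and 479 on day 3. The stromal sum was 326 in the diabetogenic and 682 in the protected sample of day 8, against 53.8 and 65.6 on day 3. The ratio for Actb, 3′ over 5′, gave 13.8 in diabetogenic and 10.5 in protected islets on day 8, against 5.54 and 5.01 on day 3 and 1.86 in untreated islets. That for Gapdh was 19.0 and 10.8 on day 8, against 9.11 and 8.49 on day 3 and 5.14 in untreated islets. On day 4 the diabetogenic array lay below its day 3 value for Actb (2.25), Gapdh (2.78) and the leukocyte sum (303). The protected array of day 4 lay above its day 3 value for each (9.24, 10.5 and 2686). Most of that 2686 came from Csf1r (1386), Laptm5 (741) and Tyrobp (358), which measured 129, 146 and 19.9 on protected day 3. Some other leukocyte markers were lower on protected day 4 than on day 3, such as Ptprc (4.62 against 23.4) and Lyz2 (21.4 against 29.8). The part of these values in the lower granule transcripts was not tested.

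**Figure D4:**
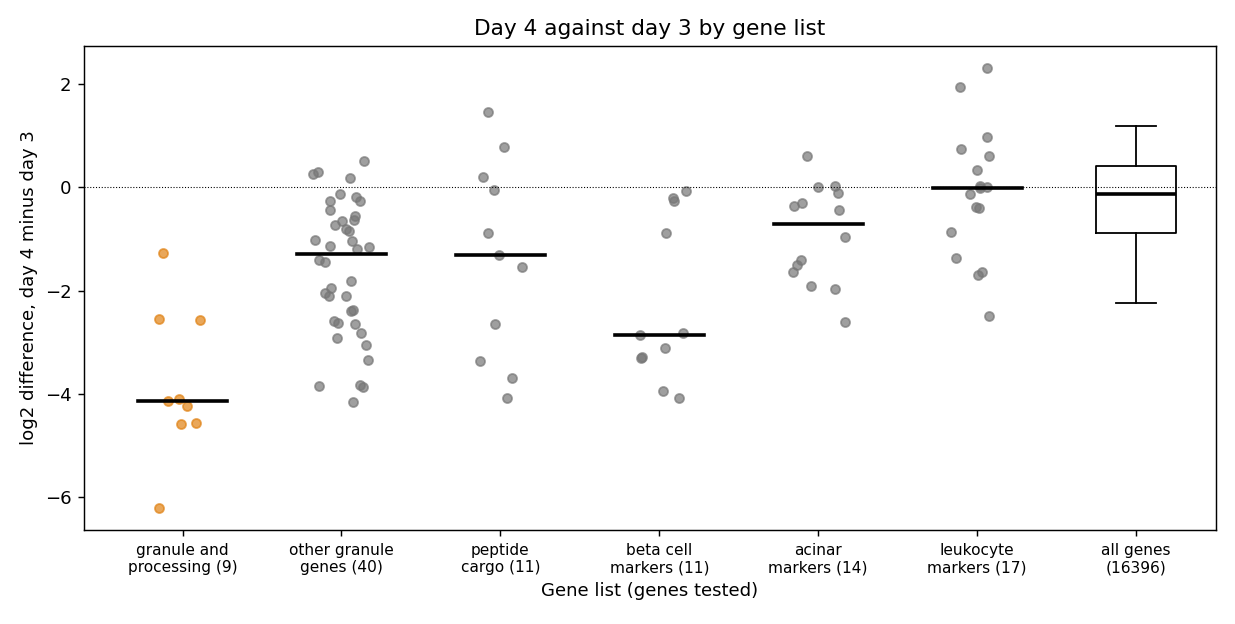
Log2 difference between day 4 and day 3, averaged over both arms, for each gene of 6 lists (points, with a bar at the median) and for all 16396 genes (box, quartiles; whiskers, 5th to 95th percentile). The 9 granule and processing genes have a median of −4.14, the other granule genes −1.30, beta cell markers −2.86 and all genes −0.14.

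Across the 8 arrays the 9 genes ran together. The correlation of each with the mean of their standardised log2 values ranged from 0.85 for Ptprn to 0.99 for Scg3, a measure that includes the gene itself and the shared differences between arrays. Of all 16396 genes, the 9 included, 8.88% exceeded 0.9. The closest outside the 9 were Prnp, the prion protein gene (r = 0.995), Glod4, Cmas, B3galnt1, Tm9sf3, Ivns1abp, Ghr, the growth hormone receptor gene, Saraf, Dennd11 and Akr1c13 (r = 0.992). Prnp measured 181 on day 3, 5.47 on day 4 and 6.69 on day 8 in diabetogenic islets, 217 on day 3, 19.3 on day 4, 34.4 on day 5 and 18.8 on day 8 in protected islets, and 246 in untreated islets.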

How the data were processed

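Per the labels' protocols, RNA from laser-captured islets was pooled, amplified, labelled with biotin and hybridised to Affymetrix arrays. The authors deposited probe set intensity values on a linear scale reaching down to 1; their summarisation and scaling are not given in the sources used here. Gene names came from the platform annotation of 2016, through probe sets with exactly 1 symbol. The 9 genes and all lists were chosen with earlier results of these data known. A probe set was tested if it reached its array's median on at least 2 arrays, and the one with the highest mean stood for its gene, leaving 16396 genes. Log2(intensity + 2.155) was fitted with limma 3.58.1 in R 4.3.3 (eBayes with a variance trend), the pseudocount being the median of the arrays' lower quartiles, and p-values were adjusted by Benjamini-Hochberg. The arms were compared with day as a block and days with arm as a block over 6 arrays, and each arm with untreated islets over 8. The arms share days per the labels' titles, not animals. Fits were tested on simulated data. Other pseudocounts, normalizations, filters, probe set rules and left-out arrays were tried. Named genes are the 9, the 10 with the most similar profile, and, from the lists of other granule genes and peptide cargo, genes that passed or changed most, not all of which are named. Pcsk1n, Ppy, Ins2, Gcg, Iapp, Rab3a, Pdx1, Slc2a2 and the collagen genes were picked after their values were seen.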

Additional observations from a re-analysis of the deposited data

Results flagged for a closer look

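The change between day 4 and day 8 ran in opposite directions in the arms for 5 genes, each on 1 array per arm and day, and the difference was not tested. The change in the diabetogenic arm minus that in the protected arm was 3.12 on the log2 scale for Chgb, 1.53 for Scg5 and 1.41 for Chga, which were higher on day 8 than on day 4 in the diabetogenic arm and lower in the protected arm. It was −1.89 for Ptprn2 and −1.60 for Ptprn, with the signs the other way round, but the values of both on protected day 4 and diabetogenic day 8 lay below the array median, so no direction is read for these 2. The diabetogenic array of day 4 also had the smallest share of bright probe sets of all 8 arrays, 0.850%.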

How the results depend on the processing

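The number of the 9 genes past the threshold was 0 in the arm comparison and in both comparisons with untreated islets under every alternative run, including the arm comparison with no replicate block, that is without pairing by day (0 of 9). Between day 4 and day 3 it was 6 to 9 and between day 8 and day 3 it was 5 to 9; both lowest counts came with the mean of probe sets per gene. Pcsk1, Cpe, Scg2, Scg3 and Scg5 passed both under every alternative. Some arm differences changed sign, all of them short of the threshold: with cyclic loess Chgb was 0.073, Scg2 0.044 and Scg3 0.15. With 1 day pair left out, Chgb ranged from −1.74 to 0.046 and Ptprn from −0.71 to 0.095; the cause was not tested. The count of genes at least 2-fold lower in diabetogenic islets on day 4 was 3 with 4 times the pseudocount and 1 with cyclic loess. On day 8 it was 4 with the pseudocount at 0.539, 0 with 4 times the pseudocount and 0 with cyclic loess. The comparisons of day 3 with untreated islets were added after the data were seen.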

Other observations

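Probe sets of the amylin gene Iapp, whose product is stored with insulin, did not run alike. The probe set tested for Iapp measured 769 on day 3, 99.7 on day 4 and 725 on day 8 in diabetogenic islets, 919 on day 3, 1143 on day 4, 887 on day 5 and 851 on day 8 in protected islets, and 505 in untreated islets. Another probe set of Iapp measured 1669 on day 3, 6.51 on day 4 and 108 on day 8 in diabetogenic islets, 1529 on day 3, 137 on day 4, 102 on day 5 and 65.6 on day 8 in protected islets, and 792 in untreated islets. Where these probe sets lie along the transcript was not analysed here.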
